A study of Mus musculus with 28 samples.

Results

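The genes described here are 10 genes of the mouse pluripotency programme, taken by name as rows of the deposited expression table: Pou5f1, Nanog, Zfp42, Klf4, Klf2, Esrrb, Tbx3, Dppa5a, Tdgf1 and Utf1. They are 10 of the 19421 genes in the table, and all 10 passed the filter on low values (10 normalized counts reached in 2 libraries or more), as did 16837 genes in all. They were taken by name with no threshold on a measured value, though with earlier results of these data known, and their levels in untreated embryoid bodies (EBs) and their change with doxycycline (Dox) were then measured in 7 lines.

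The lines are mouse embryonic stem cells derived from the A2Lox parent, which carry a Dox-inducible cassette for Atoh1 (iAtoh1), Gfi1 (iGfi1), Pou4f3 (iPou4f3), Gfi1 and Atoh1 (iG+A), Gfi1 and Pou4f3 (iG+P), Pou4f3 and Atoh1 (iP+A), or Gfi1, Pou4f3 and Atoh1 (iGPA), each followed by the fluorescent protein mVenus. All cells were taken off leukemia inhibitory factor (LIF) and grown as EBs to day 6. The Dox groups received 2 µg/ml from day 4, for 48 h, and their mVenus+ cells were sorted, whereas the No Dox groups were whole, unsorted EBs of the same line, which carry the cassette and the transactivator too. Each of the 14 groups has 2 libraries, which come from different clones, so p-values measure the spread between clones. Within a line, Dox and sorting cannot be told apart. In bulk RNA, fewer cells that express a gene and less RNA of that gene per cell cannot be told apart either.

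Embryonic stem cells keep their identity through a network of transcription factors. Pou5f1 (Oct4) and Nanog sit at its core. Esrrb, Zfp42 (Rex1), Klf2, Klf4 and Tbx3 belong to the naive layer of the network, which LIF supports in culture, and Dppa5a, Utf1 and Tdgf1 are markers of undifferentiated cells. When LIF is withdrawn and EBs form, the network is dismantled over several days, the naive layer before Pou5f1, while Klf4, Klf2 and Tbx3 are also used in other cell types.

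Pou5f1 (Entrez 18999) lies on chromosome 17 at 35642982 to 35647721 in the mm9 build (NCBIM37), on the + strand. Nanog (71950) is on chromosome 6 at 122657507 to 122664651 (+), Esrrb (26380) on chromosome 12 at 87702067 to 87862578 (+) and Zfp42 (22702) on chromosome 8 at 44380422 to 44392363 (-). Tbx3 (21386) is on chromosome 5 at 120120678 to 120134733 (+), Klf4 (16600) on chromosome 4 at 55540013 to 55545347 (-) and Klf2 (16598) on chromosome 8 at 74842932 to 74845555 (+). Dppa5a (434423) is on chromosome 9 at 78214859 to 78215984 (-), Tdgf1 (21667) on the same chromosome at 110842114 to 110848662 (-), and Utf1 (22286) on chromosome 7 at 147129688 to 147131011 (+). The values are sums over all transcripts of a gene, from its exons. Several of these genes, Pou5f1, Nanog, Tdgf1 and Dppa5a among them, have retroposed or near-identical copies elsewhere in the genome, so part of their counts may come from such copies.

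The transgenes were as labelled. Atoh1 stood at 12816 to 21242 normalized counts, Gfi1 at 8119 to 12487 and Pou4f3 at 4694 to 19883 in the Dox libraries that carry them, against at most 120.1 in any No Dox library and at most 113 in Dox libraries of lines without that transgene. Depth was estimated from the value steps at 30.3 M to 48.0 M reads per library, with medians of 38.7 M with Dox and 39.2 M without. One No Dox library stood apart for these genes, replicate 2 of iP+A, which held the highest untreated level of 7 of the 10, and replicate 2 of untreated iGPA held the lowest level of 7. In the fit of the 14 groups, changes of the 10 genes called in iP+A are also given without its library. For iGPA only the number of genes called is given with and without its library.

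Part of the promoter is given here for 4 of the genes that varied together across untreated EBs, so that its letters can be seen beside their levels. RefSeq sequences (GRCm38.p6, a different build from that of the table) were at hand for 8 of the 10 genes in 11 windows, and Tbx3 and Dppa5a had no entry. Capitals mark TTTGCAT (part of the octamer bound by POU factors) and ACAATG (SOX factors) in Nanog, GGGCGG and CCACCC (both bound by KLF and Sp factors) in Pou5f1, TTTGCAT together with GGGCGG and also CCACCC in Zfp42, and GGGCGG in Utf1, on either strand.
Pou5f1, chr17:35505932-35506031 (+): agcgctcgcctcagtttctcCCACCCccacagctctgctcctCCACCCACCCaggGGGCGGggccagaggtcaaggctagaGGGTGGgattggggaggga
Nanog, chr6:122707369-122707488 (+): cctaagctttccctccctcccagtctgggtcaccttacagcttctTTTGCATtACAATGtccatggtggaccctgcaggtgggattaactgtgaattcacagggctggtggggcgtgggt
Zfp42, chr8:43307060-43307209 (-): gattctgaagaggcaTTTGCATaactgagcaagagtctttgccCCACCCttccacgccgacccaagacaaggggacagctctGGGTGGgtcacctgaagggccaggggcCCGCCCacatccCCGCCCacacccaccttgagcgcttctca
Utf1, chr7:139943706-139943815 (+): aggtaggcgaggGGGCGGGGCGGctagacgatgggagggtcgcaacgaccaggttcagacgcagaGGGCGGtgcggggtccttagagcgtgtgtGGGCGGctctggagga

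In the Nanog promoter TTTGCAT and ACAATG lie 1 base apart, the arrangement known as an Oct-Sox element. In the bases of each window before the start site, read on both strands, TTTGCAT was found in 3 of the 11 windows (of Nanog, whose windows overlap each other, and Zfp42) and in 4.12% of 32851 mouse promoter windows, and ACAATG in 3 of 11 (of Nanog and Pou5f1) and in 10.7%. GGGCGG was found in 6 of the 11 windows, 1 for each of 6 genes, and in 32.7% of all, and CCACCC in 6 of 11, of 5 genes, and in 28.1%, where neighbouring matches can overlap each other, as they do in Utf1. The E-box CAGCTG, of the kind that Atoh1 prefers, was found in 3 of the 11 windows (of Esrrb, Klf4 and Pou5f1) and in 13.0% of all. AAATCA, the core of Gfi1 sites, was found in 1 of the 11 windows (Esrrb) and in 12.4% of all, and TAATNA, read by POU4 factors, in 1 (Tdgf1) and in 24.3%. A match describes letters in these windows and shows no binding.

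**Figure D1:**
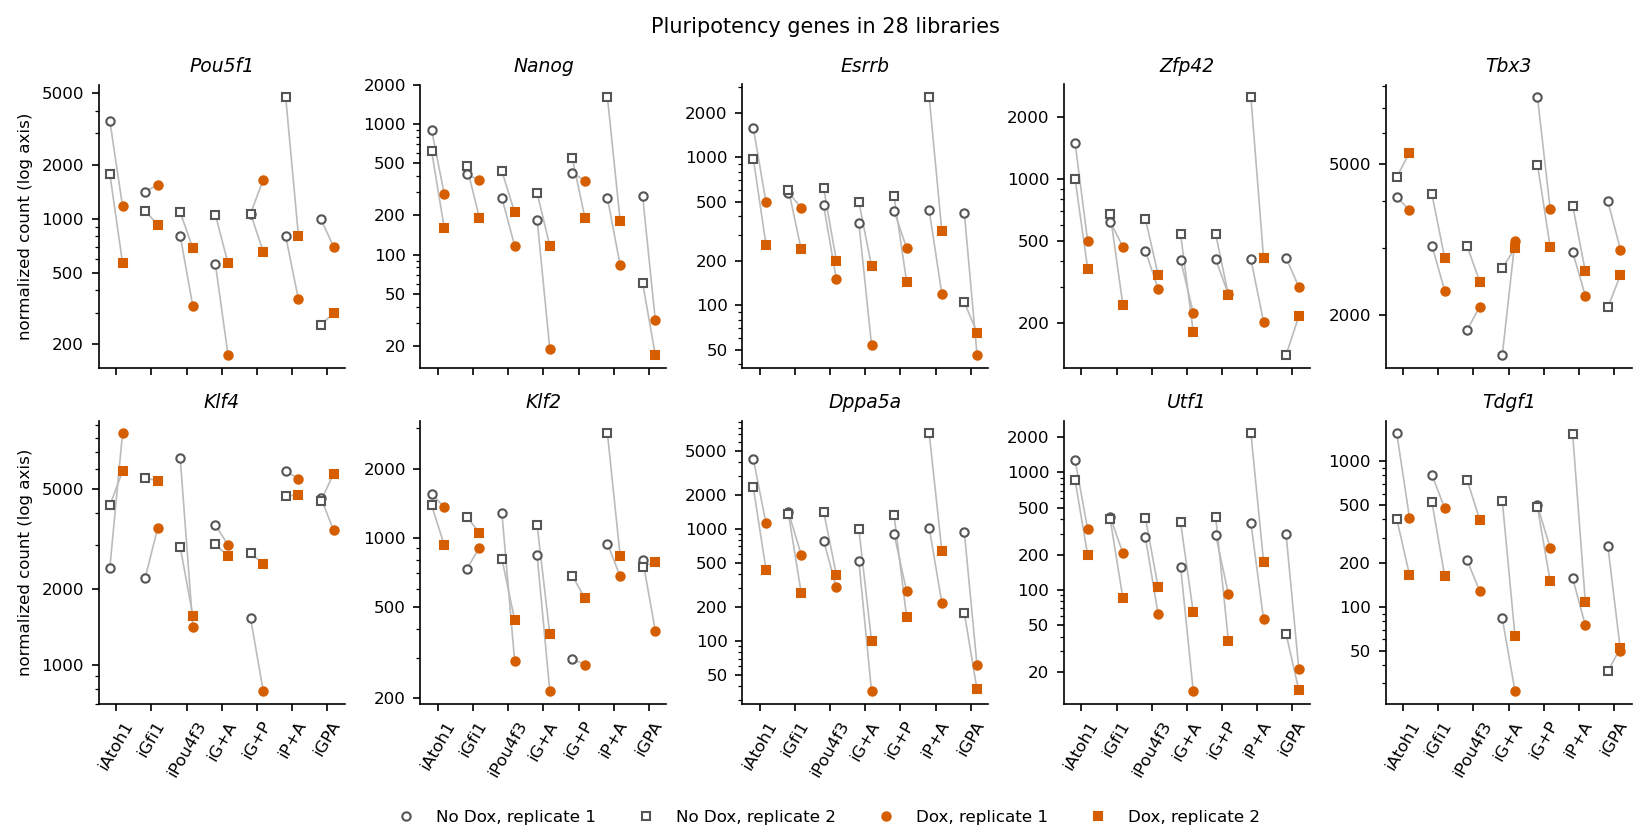
Normalized counts (log axis) of the 10 genes in 28 libraries. Open grey symbols are No Dox and filled orange symbols are Dox, circles are replicate 1 and squares replicate 2, and a grey line joins libraries of the same line and replicate number. Dppa5a, Utf1, Nanog and Esrrb have both Dox libraries below both No Dox libraries in all 7 lines, as do 1.94% of all genes, whereas Klf4 and Tbx3 show no common direction.

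All 10 genes were still transcribed in untreated EBs at day 6, at levels that differed widely between clones. Per kb of the longest transcript, the median level over the 14 untreated libraries was highest for Dppa5a, at 1909.5 normalized counts per kb, followed by Klf4 at 1299, Pou5f1 at 794, Tbx3 at 696, Klf2 at 484, Utf1 at 316, Zfp42 at 301, Tdgf1 at 255, Nanog at 189 and Esrrb at 122. The range of each gene over the 14 libraries was far wider than the step to its neighbour in this order, so the order of neighbours is not firm. For Dppa5a the untreated levels per kb ran from 288 to 11505, and for Esrrb from 24.4 to 589.

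Pou5f1, the octamer-binding factor without which pluripotent cells are not kept, was at 257 to 4756 normalized counts in untreated EBs, an 18.47-fold range with a median of 1069.8. Its highest values were 4756 in iP+A replicate 2 and 3507 in iAtoh1 replicate 1, and its lowest was 257 in iGPA replicate 2. The other replicates of those 2 end lines were at 798 in iP+A and 997 in iGPA, so the 2 clones of a line stood far apart.

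The range from the lowest to the highest untreated library was widest for Utf1, at 50.9-fold, for Tdgf1, at 42.7-fold, and for Dppa5a, at 39.9-fold. It was 26.2-fold for Nanog, 24.2-fold for Esrrb and 17.7-fold for Zfp42, and narrower for Klf2 (9.66-fold), Tbx3 (4.74-fold) and Klf4 (4.33-fold). By the F test over the 7 untreated groups (limma, Benjamini-Hochberg adjusted over all genes, with a range of group means of at least 1.5 on the log2 scale), 1 of the 10 genes passed, Tbx3, beside 3.03% of all genes. Tbx3, a T-box factor that is also active in mesoderm and other tissues, was at 7461 and 4971 normalized counts in untreated iG+P and at 1575 and 2663 in untreated iG+A, a range of group means of 1.57 on the log2 scale (adjusted p = 0.0224). Without iG+A No Dox replicate 1 or without iG+P No Dox replicate 1 no gene of the 10 passed, without iP+A No Dox replicate 2 or iGPA No Dox replicate 1 there were 2, and without iP+A No Dox replicate 1, which leaves the high clone alone in its group, 5 did.

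Of the other 9 genes, 7 had their highest untreated group mean of log2 levels in iAtoh1 and their lowest in iGPA, with ranges of group means from 2.30 for Pou5f1 to 3.21 for Utf1 on the log2 scale, and none passed (adjusted p from 0.094 for Zfp42 to 0.283 for Tdgf1, same F test in limma). By mean normalized count untreated iP+A, with its high clone, stood above iAtoh1 for all 7 but Tdgf1, as for Pou5f1 (2777 against 2642). Klf4 and Klf2 were highest in untreated iP+A and lowest in untreated iG+P (adjusted p = 0.337 and 0.111, same F test in limma).

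Pou5f1, Nanog, Zfp42, Esrrb, Dppa5a, Utf1 and Tdgf1 varied together from one untreated library to the next. Across the 14 untreated libraries, as a description over points that share lines and a common normalization, the log2 level of Pou5f1 went with that of Dppa5a at a Pearson r of 0.985 (Spearman 0.930), Esrrb at 0.977 (0.934), Utf1 at 0.9754 (0.938), Zfp42 at 0.971 (0.930), Nanog at 0.961 (0.943) and Tdgf1 at 0.908 (0.864). Leaving out the 2 libraries farthest from the median of Pou5f1 gave r between 0.837 for Tdgf1 and 0.959 for Dppa5a. For Klf2 r was 0.565, and 0.338 without the 2 farthest libraries, for Tbx3 it was 0.507 and for Klf4 -0.19. Among the genes outside the lists used here, those most like Pou5f1 across the untreated libraries were B3gnt7 (r = 0.988), Ildr1 (0.987), Elf3 (0.986), Echdc2 (0.982) and Triml1 (0.981). Over the 14 group means, treated groups included, they were Ildr1 (0.941), Ano9 (0.930), Gpa33 (0.928), Cbs (0.927) and B3gnt7 (0.920).

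With Dox the same correlations with Pou5f1 were lower. Across the 14 Dox libraries r was 0.813 for Nanog, 0.777 for Tdgf1, 0.730 for Esrrb, 0.696 for Utf1, 0.662 for Dppa5a and 0.589 for Zfp42, all described over libraries of 7 different lines. The difference between the 2 conditions was not tested. Pou5f1 and Dppa5a are set against each other in the plot of gene pairs.

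**Figure D2:**
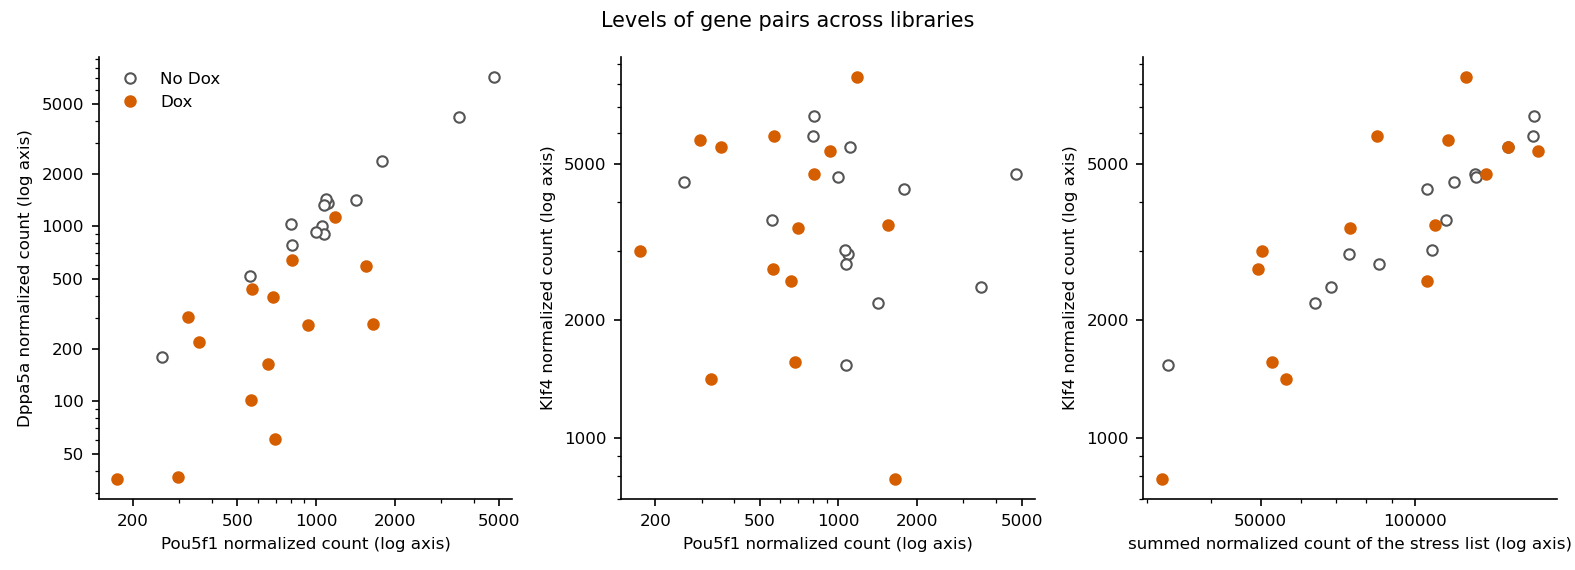
Normalized counts across 28 libraries (log axes) of Dppa5a against Pou5f1, of Klf4 against Pou5f1, and of Klf4 against the summed counts of 12 stress genes. Open grey points are No Dox and filled orange points are Dox. Untreated libraries lie on one band for Dppa5a against Pou5f1 and the Dox libraries lie on or below it, while Klf4 shows no relation to Pou5f1 and rises with the stress genes.

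The comparison of each Dox group with its own No Dox group asks how the 10 genes stood after 48 h of the factors, in the sorted cells. A gene was called where the Benjamini-Hochberg adjusted p of limma was under 0.05 and the log2 fold change was at least 1.5 in either direction. None of the 10 was called higher in any line, where between 1.47% (iPou4f3) and 8.65% (iGPA) of all genes were, with 2.89% in iAtoh1, 2.15% in iGfi1, 4.7% in iP+A, 5.16% in iG+P and 7.35% in iG+A. Averaged over the 7 lines, 5 of the 10 were called lower, beside 2.05% of all genes, and 0 higher, beside 3.33%. The 5 were Dppa5a, Utf1, Esrrb, Nanog and Tdgf1. Zfp42, Pou5f1 and Klf2 had an adjusted p under 0.05 with a log2 change under 1.5, as did 28.1% of all genes in that direction, and Klf4 and Tbx3 had neither. The median over the 10 genes was -1.25 on the log2 scale, beside -0.0036 over all genes.

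**Figure D3:**
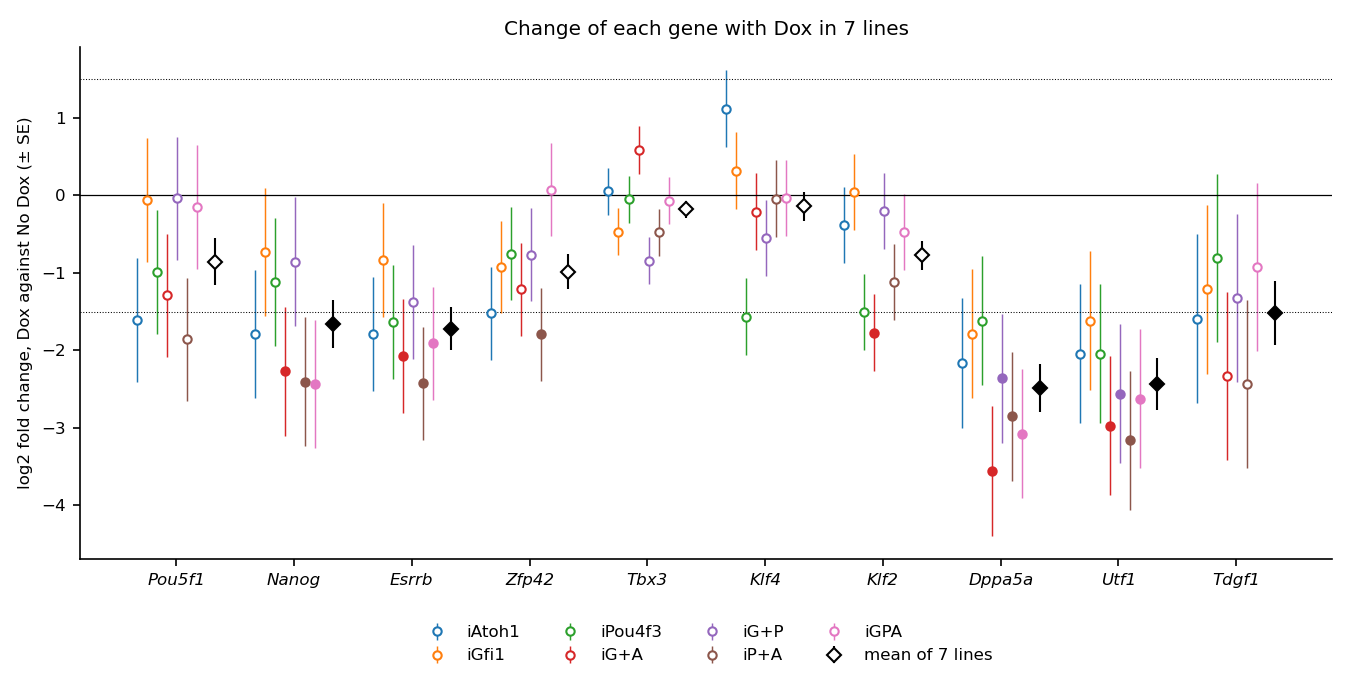
Log2 fold change of each gene, Dox against No Dox, in each of 7 lines (coloured circles) and as the mean of the 7 (black diamonds), with bars of 1 standard error from limma. Filled symbols passed an adjusted p of 0.05 and a change of at least 1.5 (dotted lines). Dppa5a and Utf1 sit lowest, with means of -2.49 and -2.43, and Klf4 and Tbx3 have means near 0.

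Pou5f1, the core factor, changed by different amounts from line to line. In iAtoh1 it was at 3507 and 1776 normalized counts without Dox and at 1178 and 569 with Dox. In iPou4f3 it was at 807 and 1088 without and at 325 and 684 with Dox. In these 2 lines both Dox libraries lay below both No Dox libraries, and in the other 5 lines the groups overlapped.

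In iGfi1 Pou5f1 was at 1417 and 1107 without Dox and at 1545 and 928 with Dox, and in iG+P at 1069 and 1070.3 without and at 1649.8 and 656 with Dox. In iGPA it was at 997 and 257 without and at 699 and 297 with Dox. In these 3 lines, all of which carry Gfi1, the Dox and No Dox libraries overlapped, the Dox libraries lying outside the No Dox ones in iGfi1 and iG+P and between them in iGPA, and the log2 fold changes were -0.06, -0.04 and -0.15. In the fourth line with Gfi1, iG+A, Pou5f1 was at 559 and 1057 without and at 174 and 564 with Dox, a log2 fold change of -1.29 ± 0.80 (SE). In iP+A, at 798 and 4756 without and at 357 and 807 with Dox, the change was -1.86 ± 0.80, and -0.57 without the high clone, iP+A No Dox replicate 2.

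The mean change of Pou5f1 over 7 lines was -0.86 ± 0.30 on the log2 scale (adjusted p = 0.0197 in limma), a 1.81-fold lower level. It was called in no line. No label states that replicate numbers pair Dox and No Dox libraries. The difference between the 2 replicates correlated, with Dox against without, by 0.103 to 0.246 over all genes. Of the 10 genes, it had the same sign with and without Dox for 4 in iG+P, 6 in iGPA and 7 to 10 in the other lines. In a limma fit blocked on replicate number within a line, Pou5f1 was called lower in iAtoh1 (-1.61 ± 0.35, adjusted p = 0.0051) and in iP+A (-1.86 ± 0.35, adjusted p = 0.0019). The fit with this block was not repeated without the high clone, iP+A No Dox replicate 2.

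Nanog, the homeodomain factor whose loss lets cells leave the pluripotent state, stood lower with Dox in every line. It was at 901 and 622 normalized counts without Dox and at 291 and 159.9 with Dox in iAtoh1, and at 412 and 474 without and 370.1 and 191 with Dox in iGfi1. In iPou4f3 it was at 271 and 435 without and at 118 and 211 with Dox, and in iG+P at 422 and 551 without and at 369 and 191 with Dox. The 2 Dox libraries lay below the 2 No Dox libraries in each of these lines.

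Nanog was called in 3 lines. In iG+A it was at 186 and 297 without Dox and at 19.1 and 117 with Dox, and in iP+A at 271 and 1596 without and at 83.3 and 183 with Dox. In iGPA it was at 280.5 and 60.9 without and at 31.7 and 17.2 with Dox. Nanog was lower in these lines by log2 fold changes of -2.27 (adjusted p = 0.0348), -2.41 (0.0409) and -2.44 (0.0222) in limma. Leaving out 1 library of the line removed the call in 3 of 4 fits in iG+A (to as little as -0.997), in 3 of 4 in iP+A (-1.13, without the high clone, No Dox replicate 2) and in 2 of 4 in iGPA (-1.35). Nanog was called over 7 lines by -1.66 ± 0.31 (adjusted p = 1.67e-04). Without iG+A Dox replicate 1 or iP+A No Dox replicate 2 that mean was -1.48, under the threshold on size. The replicate block added a call for Nanog in iAtoh1 (-1.79, adjusted p = 0.0179 in limma). The difference that adding Atoh1 made to the Dox effect was -1.47 ± 0.68 and was not called (adjusted p = 0.111 in limma). It passed in 1 of the other settings, quantile normalization (-1.72, adjusted p = 0.0496 in limma).

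Esrrb, an orphan nuclear receptor of the naive network, also had both Dox libraries below both No Dox libraries in 7 of 7 lines. In iG+A it was at 361 and 502 normalized counts without Dox and at 54.4 and 184 with Dox. In iGPA it was at 419 and 105 without and at 46.4 and 65.4 with Dox. In iP+A it was at 438 and 2534 without and at 119.5 and 318 with Dox.

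Esrrb was called lower in iG+A (-2.08 ± 0.73, adjusted p = 0.0296), iP+A (-2.43 ± 0.73, adjusted p = 0.0205) and iGPA (-1.91 ± 0.73, adjusted p = 0.0402) in limma. Leaving out 1 library of the line removed the call in 3 of 4 fits in iG+A (to as little as -1.21), in 2 of 4 in iP+A (-1.16, without No Dox replicate 2) and in 3 of 4 in iGPA (-0.92). In the other 4 lines its untreated libraries were at 434 to 1572 and its Dox libraries at 144 to 498, and the change was not called, except with the replicate block in iAtoh1 (-1.79, adjusted p = 0.0196 in limma). Over 7 lines it fell by 1.72 ± 0.28 on the log2 scale (adjusted p = 3.05e-05 in limma), 3.30-fold.

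Zfp42, a zinc-finger gene long used as a marker of naive cells, was at 141 to 2489 normalized counts without Dox and within a narrow range of 182 to 498 with Dox. Its Dox libraries lay below its No Dox libraries in 5 lines, the exceptions being iP+A and iGPA. In iGPA it was at 416 and 141 without Dox and at 299.9 and 216 with Dox, a log2 fold change of 0.07. In iP+A it was at 408 and 2489 without and at 203 and 413 with Dox and was called lower (-1.80 ± 0.60, adjusted p = 0.0345 in limma), but not without its replicate 2 of No Dox (-0.49). The mean change was -0.99 ± 0.23 (adjusted p = 9.92e-04 in limma), under the threshold on size. The replicate block added a call for Zfp42 in iAtoh1 (-1.52, adjusted p = 0.0082 in limma).

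Klf2 and Klf4, Krüppel-like factors that maintain naive cells and that are also induced by growth factors and stress in many tissues, were not called over 7 lines. Klf2 fell by 0.78 ± 0.19 on the log2 scale there (adjusted p = 0.0015 in limma). It was called lower in iG+A, at 843 and 1135 normalized counts without Dox and 215 and 381 with Dox (-1.77 ± 0.49, adjusted p = 0.0078 in limma), a call lost without No Dox replicate 2 or Dox replicate 1 of that line (-1.36 at the least). In iPou4f3 it was at 1279 and 809 without and at 291 and 438 with Dox (-1.51 ± 0.49, adjusted p = 0.0922 in limma, and 0.0223 with the replicate block, where it was called). In the other 5 lines its change lay between -1.12 and 0.04 on the log2 scale and was not called.

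Klf4 was at 6638 and 2942 normalized counts without Dox and at 1416 and 1565 with Dox in iPou4f3 (-1.57 ± 0.50, adjusted p = 0.0794 in limma, and 0.0185 with the replicate block, where it was called). In iAtoh1 it was at 2429 and 4304 without and at 8326 and 5891 with Dox, the opposite side (1.11 ± 0.50, adjusted p = 0.113 in limma). In the remaining lines the changes lay between -0.55 and 0.32. Its mean over 7 lines was -0.14 ± 0.19 (adjusted p = 0.535 in limma), with a 95% interval of -0.53 to 0.25.

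The levels of Klf4 went with those of immediate early and heat shock genes, a list of 12 (Fos, Fosb, Jun, Junb, Egr1, Atf3, Ier2, Dusp1, Hspa1a, Hspa1b, Zfp36 and Btg2) known to respond when tissue is dissociated. Across the 14 untreated libraries, r between log2 Klf4 and the log2 of the summed list was 0.963 (Spearman 0.978), and 0.944 without the 2 libraries farthest from the median. Across the 14 Dox libraries it was 0.821 (Spearman 0.727), and 0.739 without the 2 farthest. For Klf2 the values were 0.603 without Dox, falling to 0.134 without the 2 farthest libraries, and 0.841 with Dox. For Pou5f1 they were -0.19 and 0.079. These are descriptions over libraries that share lines.

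In iPou4f3, where Klf4 stood lowest against its control, the summed list was at 74252 and 170016 normalized counts in the No Dox libraries and at 52676 and 55941 with Dox, and all 12 of its genes lay below 0 with a median log2 fold change of -1.12. In iG+A, where Klf2 was called, the sum was at 107843 and 114632 without Dox and at 49319.5 and 50187 with Dox, and 2 of the 12 genes were called lower. In iAtoh1, where Klf4 was higher, the sum was at 68435 and 105194 without and at 84383 and 125521 with Dox. Over 7 lines 0 of the 12 stress genes were called in limma (2 with an adjusted p under 0.05 in each direction). The part of this list in the changes of Klf4 and Klf2 was not tested.

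Tbx3 had the narrowest fold range of the 10 with Dox (2.53-fold), at 2108 to 5343 normalized counts in the 14 Dox libraries. In iG+A it was at 1575 and 2663 without and at 3136 and 2996 with Dox (0.58 ± 0.30, adjusted p = 0.137 in limma). In iG+P it was at 7461 and 4971 without and at 3810.4 and 3026 with Dox (-0.84 ± 0.30, adjusted p = 0.0397 in limma, under the threshold on size). The mean over 7 lines was -0.18 ± 0.12 (adjusted p = 0.177 in limma).

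Dppa5a, which codes for a small KH-domain protein of early embryonic cells, had the largest mean change of the 10. It was at 4216 and 2354 normalized counts without Dox and at 1129.5 and 436 with Dox in iAtoh1, at 1411 and 1363 without and 592 and 272 with Dox in iGfi1, and at 787 and 1425 without and 302 and 393 with Dox in iPou4f3. In these single-factor lines the groups did not overlap, and the changes of -2.16, -1.79 and -1.62 on the log2 scale were not called (adjusted p = 0.0684, 0.122 and 0.320 in limma). All 3 were called with the replicate block in limma (adjusted p = 0.0029, 0.0074 and 0.0418).

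In iG+A Dppa5a was at 522 and 1002 without Dox and at 36.0 and 101.3 with Dox, an 11.8-fold lower level (-3.56 ± 0.83 on the log2 scale, adjusted p = 0.0023 in limma). In iGPA it was at 933 and 178 without and at 60.9 and 37.2 with Dox (-3.07 ± 0.83, adjusted p = 0.0056). In iG+P, at 906 and 1332 without and 278 and 163 with Dox, the change was -2.36 ± 0.83 (adjusted p = 0.0354 in limma). In iP+A, at 1032 and 7122 without and 219 and 642 with Dox, it was -2.85 ± 0.83 (adjusted p = 0.0176 in limma), and -1.46, not called, without iP+A No Dox replicate 2. The call in iG+A held in 4 of 4 fits with 1 library of the line left out, that in iGPA was lost without No Dox replicate 1 (-1.88), and that in iG+P was lost in 4 of 4 fits (-1.98 at the least). Over 7 lines it fell by 2.49 ± 0.31 (adjusted p = 1.92e-06 in limma), 5.61-fold.

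Utf1, a chromatin-bound factor of undifferentiated cells and a known target of Oct4 with Sox2, was called in the same lines as Dppa5a. In iAtoh1 it was at 1276 and 860.1 normalized counts without Dox and at 328 and 197 with Dox, in iGfi1 at 417 and 399 without and 206 and 85.1 with Dox, and in iPou4f3 at 279.9 and 410.4 without and 62.5 and 106 with Dox. In iG+A it was at 158 and 375 without and at 13.8 and 64.7 with Dox, and in iG+P at 292 and 415 without and at 92.0 and 36.6 with Dox. In iP+A it was at 369 and 2147 without and at 56.0 and 173 with Dox, and in iGPA at 297 and 42.2 without and at 21.3 and 14.1 with Dox.

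The Dox libraries of Utf1 lay below the No Dox libraries in 7 of 7 lines. It was called lower in the same 4 lines as Dppa5a, by -3.16 in iP+A, -2.97 in iG+A, -2.63 in iGPA and -2.56 in iG+P on the log2 scale (adjusted p = 0.0147, 0.0129, 0.0227 and 0.0339 in limma). Leaving out 1 library of the line removed the call in 2 of 4 fits in iP+A (to as little as -1.89, without No Dox replicate 2), 2 of 4 in iG+A (-1.90), 3 of 4 in iGPA (-1.23) and 3 of 4 in iG+P (-1.91). With the replicate block it was also called in iAtoh1, iGfi1 and iPou4f3 (-2.04, -1.62 and -2.04, adjusted p = 0.0117, 0.0317 and 0.0352 in limma). Over 7 lines it fell by 2.43 ± 0.34 (adjusted p = 6.10e-06 in limma), 5.40-fold.

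Tdgf1 (Cripto), the co-receptor through which Nodal signals, had the largest standard error of the 10 (1.09 on the log2 scale in a line). In iG+A it was at 83.5 and 535 normalized counts without Dox and at 26.6 and 63.4 with Dox, and in iP+A at 158 and 1537 without and at 75.1 and 109 with Dox. In iGPA it was at 263 and 36.4 without and at 50.1 and 52.5 with Dox. No line was called, although the mean over 7 lines was, at -1.52 ± 0.41 (adjusted p = 0.0037 in limma), close to the threshold of 1.5. Leaving out any of 12 libraries, 1 at a time, brought it under that size, to -1.29 without iP+A No Dox replicate 2. With the replicate block in limma Tdgf1 was called lower in iG+A (adjusted p = 0.0130) and iP+A (adjusted p = 0.0155). In the fit without the block, its change in iP+A was -0.80 once iP+A No Dox replicate 2 was left out.

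By line, the number of the 10 genes called lower was 5 in iG+A (4.95% of all genes) and in iP+A (2.58%), 4 in iGPA (5.31%), 2 in iG+P (5.36%), and 0 in iPou4f3 (0.606%), iGfi1 (2.67%) and iAtoh1 (2.52%). In the 3 lines with a count of 0 none of the 10 had an adjusted p under 0.05 in limma, and at an unadjusted p under 0.05 there were 6 genes of the 10 in iAtoh1 (5 lower and Klf4 higher), 1 in iGfi1 and 4 in iPou4f3, beside 35.6%, 38.2% and 18.2% of all genes in either direction. With the replicate block the counts were 7 in iP+A (3.02% of all genes), 6 in iAtoh1 (2.95%) and iG+A (5.21%), 4 in iGPA (5.47%) and iPou4f3 (0.826%), and 2 in iG+P (5.65%) and iGfi1 (2.84%). These counts with the block were not repeated with a library left out, the high clone of iP+A included. Both Dox libraries lay below both No Dox libraries for 7 of the 10 genes in iAtoh1, iGfi1, iG+P and iP+A, 8 in iPou4f3 and iG+A, and 4 in iGPA, beside 30.6%, 32.5%, 34.1%, 34%, 26.3%, 32.1% and 36.4% of all genes in that order.

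Settings and single libraries decided several of these counts. With only the groups compared in the fit, 2 genes were called in iG+A, 0 in iP+A and 1 in iGPA. With all untreated libraries as 1 control, 8 were called in iG+A and 0 in iP+A. The share of all genes called was not counted in these fits. Without iP+A No Dox replicate 2, the high clone, 0 of the 10 genes were called in iP+A, without iP+A Dox replicate 1 also 0, and without iP+A No Dox replicate 1 there were 8. Without iGPA No Dox replicate 1 there were 0 in iGPA, without Dox replicate 1 there were 2, without Dox replicate 2 there was 1, and without No Dox replicate 2, the low clone, there were 4 as with it. In iG+A 1 gene was left without No Dox replicate 2 or without Dox replicate 1, and in iG+P 0 or 1 were left whichever library was dropped. Over 7 lines Dppa5a, Utf1 and Esrrb were the 3 genes left without iP+A No Dox replicate 2 or without iG+A Dox replicate 1, and at least 4 without any other library.

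The matched differences between lines ask what a further factor added to the Dox effect, with sorting on both sides. None of the 10 genes was called for adding Gfi1 (beside 3.07% of all genes called lower and 4.84% higher), adding Atoh1 (1.49% and 3.64%) or adding Pou4f3 (0.469% and 2.25%), nor in any of the 9 single pairs of lines. In those pairs 8.54% of all genes were called in either direction for iG+A minus iGfi1, 7.63% for iG+P minus iPou4f3, 7.6% for iGPA minus iP+A, 6.87% for iG+A minus iAtoh1, 5.9% for iGPA minus iG+P, 2.78% for iP+A minus iAtoh1, 2.2% for iGPA minus iG+A, 1.85% for iG+P minus iGfi1 and 1.61% for iP+A minus iPou4f3. At an unadjusted p under 0.05 there was 1 gene for adding Atoh1, Nanog, and 0 for Gfi1 or Pou4f3, beside 40.6%, 42.7% and 24% of all genes. The estimates for adding Gfi1 were 0.99 ± 0.65 for Pou5f1, 0.72 ± 0.49 for Zfp42, -0.79 ± 0.68 for Dppa5a and -0.31 ± 0.73 for Utf1 (adjusted p = 0.264, 0.279, 0.410 and 0.788 in limma). The lines share No Dox and Dox groups between these differences, so they are not independent of each other.

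Levels were also set against Pou5f1 in the same library, a scale chosen after the values were seen, since clones differed so much in Pou5f1. Without Dox the ratio of Dppa5a to Pou5f1 was 0.693 to 1.498 over 14 libraries, and with Dox 0.0871 to 0.959. For Utf1 it was 0.164 to 0.484 without and 0.0305 to 0.345 with Dox. In 7 of 7 lines both Dox ratios lay below both No Dox ratios for Dppa5a and for Utf1, in 6 for Esrrb, 5 for Nanog, 2 for Tdgf1, 1 each for Zfp42 and Tbx3, and 0 for Klf4 and Klf2. Of all genes, 0.0535% did so in 7 lines, 0.154% in at least 6 and 0.273% in at least 5.

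**Figure D4:**
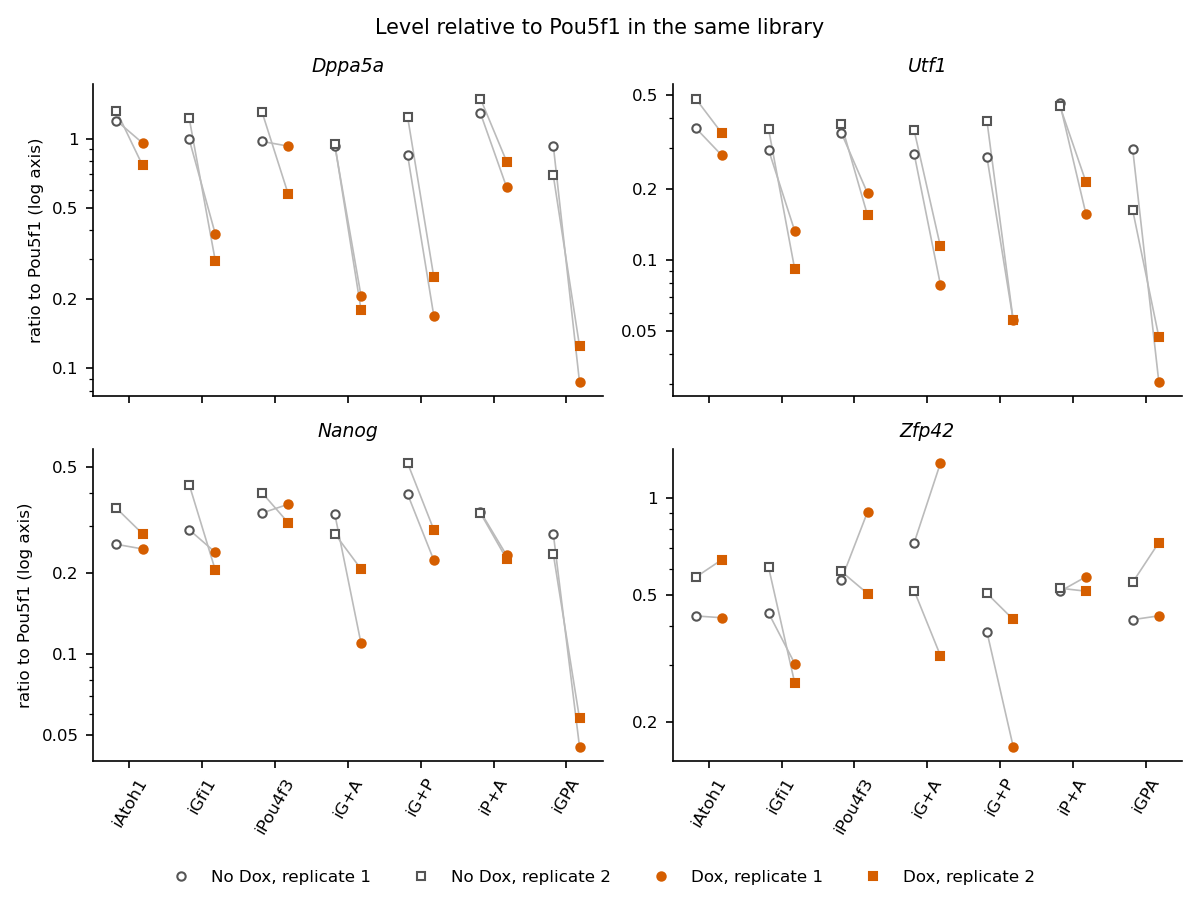
Ratio of the normalized counts of Dppa5a, Utf1, Nanog and Zfp42 to those of Pou5f1 in the same library (log axis), by line, with symbols as for the counts by library. The ratios of Dppa5a and Utf1 are lower with Dox in 7 of 7 lines, and lowest in iGPA, whereas those of Zfp42 go either way.

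In a limma fit of all genes on this scale, where the error of Pou5f1 enters every gene, Dppa5a was lower than Pou5f1 by a further -1.63 ± 0.36 (adjusted p = 6.35e-05) and Utf1 by -1.57 ± 0.36 (adjusted p = 1.18e-04) over 7 lines. These 2 were called, beside 0.368% of all genes. The call of Utf1 was lost with a pseudocount of 5 (-1.49). Esrrb (-0.86, adjusted p = 0.0323) and Nanog (-0.80, adjusted p = 0.0436) had an adjusted p under 0.05 in limma with smaller changes, Tdgf1 was at -0.66 (adjusted p = 0.0860), and for Zfp42 the value was -0.13 ± 0.36 (adjusted p = 0.740). Klf4 stood 0.72 above Pou5f1 in its change (adjusted p = 0.0716), Tbx3 0.67 (adjusted p = 0.0879) and Klf2 0.082 (adjusted p = 0.836), and none of these was called in limma. By line the 1 call on this scale was Dppa5a in iGPA (-2.92, adjusted p = 0.0472 in limma), where 0.927% of all genes were called lower.

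A fit with the replicate block on this scale called more by line. Dppa5a and Utf1 were lower in iGfi1, iG+A, iG+P and iGPA, beside 2.01%, 1.27%, 5.07% and 4.34% of all genes, and Nanog and Esrrb in iGPA (-2.28 and -1.76). Klf4 was higher in iAtoh1 (2.72) and iP+A (1.81), and Tbx3 in iAtoh1 (1.66) and iG+A (1.87), but 59.4% of all genes were called higher than Pou5f1 in iAtoh1, 76.1% in iP+A and 34.3% in iG+A.

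The Dox ratios of Dppa5a and Utf1 did not overlap between lines with and without Gfi1, whereas those of the other 7 genes did, and the highest Dox ratio of Zfp42 (1.29) was in a line with Gfi1. Over the 8 Dox libraries with Gfi1 the ratio of Dppa5a to Pou5f1 was 0.0871 to 0.383, and over the 6 Dox libraries without it 0.574 to 0.959, with no overlap. For Utf1 it was 0.0305 to 0.133 with and 0.155 to 0.345 without Gfi1, again with no overlap. In 0.344% of all genes the Dox ratios with Gfi1 all lay below those without. Among untreated libraries the ranges overlapped, at 0.693 to 1.24 for Dppa5a in lines with the Gfi1 cassette and 0.9752 to 1.498 in lines without, and at 0.164 to 0.388 and 0.347 to 0.484 for Utf1, while the untreated medians were 0.942 and 1.302 for Dppa5a and 0.296 and 0.414 for Utf1. The difference made by adding Gfi1 on this scale was -1.78 ± 0.77 for Dppa5a and not called (adjusted p = 0.233 in limma, where 3.06% of all genes were called lower). With the replicate block it was called (adjusted p = 1.01e-04 in limma), but so were 14.4% of all genes in that direction. For Utf1 it was -1.30 ± 0.77 (adjusted p = 0.405 in limma) and was not called with the block either. The change of Pou5f1 itself enters these differences. In counts rather than ratios, adding Gfi1 was 0.99 for Pou5f1, -0.79 for Dppa5a and -0.31 for Utf1, and none was called. The Dox counts of both genes overlapped between lines with and without Gfi1. Dppa5a was at 592 in iGfi1 replicate 1 and at 219 in iP+A replicate 1. Utf1 was at 206 in iGfi1 replicate 1 and at 62.5 in iPou4f3 replicate 1.

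Other genes of the programme were counted in the same way. A list of 14 further genes was grouped as naive, though not all are confined to that state. It held Sox2, Klf5, Tfcp2l1, Prdm14, Nr0b1, Nr5a2, Dppa3, Tcl1, Fgf4, Zfp296, Eras, Fbxo15, Tdh and Gbx2. Of these, 4 were called lower over 7 lines and none higher, with a median of -1.15 on the log2 scale: Dppa3 (Stella), a maternal factor of naive and germ cells (-3.11 ± 0.27), Tcl1, a cofactor of Akt (-2.51 ± 0.24), Tdh, an enzyme of threonine breakdown on which mouse stem cells depend (-2.16 ± 0.32), and Tfcp2l1, a transcription factor of the LIF response (-1.52 ± 0.19). Their adjusted p in limma were 1.30e-08, 4.57e-08, 1.47e-05 and 2.00e-06. Sox2 was at -1.45 over 7 lines (adjusted p = 1.64e-04 in limma), under the threshold on size. By line 9 of the 14 were called lower in iP+A, 4 each in iAtoh1 and iG+A, 3 in iGPA, 2 in iG+P, 1 in iGfi1 and 0 in iPou4f3 (limma, 6 with an unadjusted p under 0.05 there). Without No Dox replicate 2 of the line the 9 in iP+A became 1 and the 3 in iGPA became 4. Gbx2, a homeobox gene of the LIF response and of neural tissue, was called higher in iGfi1 (2.72), iG+P (3.14) and iGPA (2.47), the only higher calls by line among the 14, and the call in iGPA was lost without No Dox replicate 2 of that line (2.81, adjusted p = 0.0731 in limma). The call of Tfcp2l1 over 7 lines was lost without any of 11 libraries, 1 at a time (lowest size -1.39), and with a pseudocount of 5 (-1.496).

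Of 16 genes shared with later pluripotent cells or of the formative state, 4 were called lower and 1 higher over 7 lines, with a median of -0.50. The lower ones named are Dppa2 (-1.90), L1td1 (-1.64) and Dnmt3l (-1.63), and the higher one is Pou3f1 (Oct6), a POU factor of the formative epiblast that is also used in neural cells (2.40 ± 0.24, adjusted p = 1.11e-07 in limma). Without iP+A No Dox replicate 2 or iGPA No Dox replicate 1 L1td1 was just under the threshold on size (-1.47 at the least), as was Dnmt3l without iGPA No Dox replicate 1 (-1.49). Pou3f1 was called higher in the 4 lines with Atoh1, by 2.62 in iAtoh1, 3.82 in iG+A, 3.61 in iP+A and 5.42 in iGPA, and by 3.96 and 4.73 in the last 2 without their No Dox replicate 2. None of the 7 genes of the LIF pathway (Lifr, Il6st, Jak1, Stat3, Socs3, Pim1 and Pim3) was called over 7 lines in limma, while 2 had an adjusted p under 0.05 upward and 4 downward. By line Pim1 was called lower in iG+A (-1.503) and Lifr in iG+P (-1.71).

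**Figure D5:**
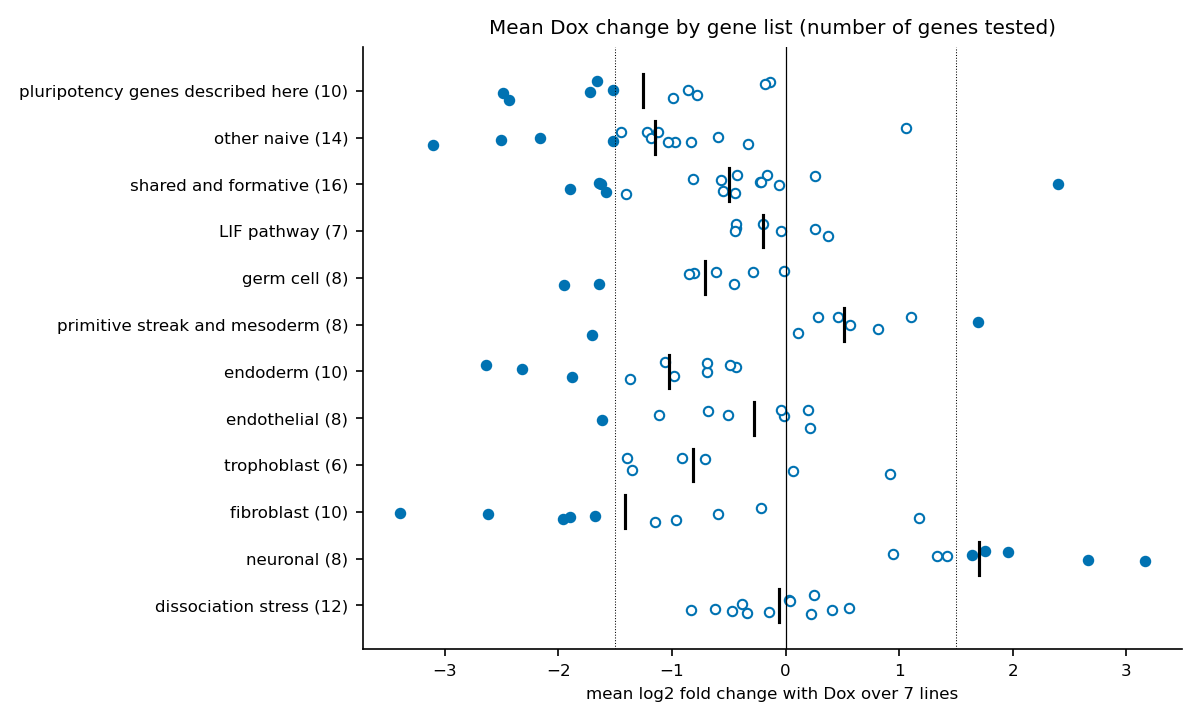
Mean log2 fold change with Dox over 7 lines for each gene of 12 lists, with the number of genes tested in brackets. Filled points passed an adjusted p of 0.05 and a change of at least 1.5 (dotted lines), black bars are list medians, and points are spread vertically for sight only. The 10 genes described here have a median of -1.25 and the fibroblast and endoderm lists have medians of -1.41 and -1.02, while the neuronal list has a median of 1.70.

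Markers of other cell types also differed between whole EBs and sorted cells. Of 10 fibroblast genes 5 were called lower over 7 lines, led by Lum (-3.39), Col1a2 (-2.62), Col1a1 (-1.96) and Postn (-1.90), and the summed list ran from 53377 to 172751 normalized counts without Dox and from 10287 to 128305 with Dox. Of 10 endoderm genes 3 were called lower (Ttr, -2.64, Afp, -2.32, and Dab2, -1.88), with sums of 12171.5 to 20959.9 without and 4052 to 15348.5 with Dox. Of 8 germ cell genes, which share much of this programme, 2 were called lower (Tfap2c, -1.95, and Dazl, -1.64). Of 8 endothelial genes Pecam1 was called lower (-1.62), with 6 of the 8 below 0 and a list median of -0.28. Of these 8, 1 had an adjusted p under 0.05 upward and 4 downward in limma, and in iGPA the list median was 0.42. Of 8 genes of the primitive streak and mesoderm Hand1 was called lower (-1.70) and Msgn1 higher (1.69), the list having 1 gene below 0 and a median of 0.51. With a pseudocount of 5 the calls of Dazl (-1.34) and Msgn1 (0.91) were lost, and that of Msgn1 also without iG+A Dox replicate 2 (1.47) or iP+A No Dox replicate 1.

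Of 8 neuronal genes 5 were called higher and none lower (Dcx, 3.16, Elavl4, 2.66, Syt1, 1.96, and Map2, 1.76, among them), with sums of 406 to 1247 normalized counts without and 773 to 22895 with Dox. Of 6 trophoblast genes tested, of 7 listed, 0 were called over 7 lines in limma (4 with an adjusted p under 0.05 downward and 1 upward). By line at most 3 were called lower (in iGPA) and at most 1 higher. No gene tested in these lists was under 10 normalized counts in every library. The part of cell composition in the changes of the 10 genes was not tested.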

How the data were processed

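RNA was sequenced from 28 libraries (7 lines, Dox and No Dox, 2 replicates each). Per the study's methods and the submitters' notes, the authors trimmed reads with cutadapt, quantified mm9 transcripts with kallisto, collapsed transcripts to genes by tximport and scaled libraries by DESeq2 (versions not given in the sources used here). The deposited values are log2(normalized count + 1). Whole reads were not recovered (71.1% to 79.4% of values up to 20 within 0.05 of a whole read), so no count test was run.

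Values were fitted by limma 3.58.1 (R 4.3.3) with trend, 14 groups and 14 residual degrees of freedom, for the 16837 genes that reached 10 normalized counts in 2 libraries or more. Fold changes are on the log2(value + 1) scale, which understates those of low genes. The step was tested on simulated counts without differences between clones, so that test does not cover the spread between clones seen here. The members and lists were chosen with earlier results of these data known. From each other list, up to 4 genes with the largest called mean Dox effect are named. The series record gives the replicates as clones. Deviations of same-numbered libraries correlated by 0.103 to 0.246 in all 7 lines, so the replicate number within a line served as a block in a second fit. No label gives this pairing. Other alternatives were pseudocounts of 0.5 and 5, no filter or 50 normalized counts, quantile normalization, only the groups compared, all untreated libraries as 1 control, a lower limit of 1 on the log2 fold change, and leaving out every library in turn. Symbols came from RefSeq names (19314 of 19421), places from NCBIM37 and promoters from RefSeq GRCm38.p6.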

Additional observations from a re-analysis of the deposited data

Results flagged for a closer look

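For 7 further genes of the programme the effect of Dox differed by whether a factor had been added, by the test of that difference in limma (adjusted over all genes). With Gfi1 added, Dppa3 was lower by -1.57 ± 0.58 on the log2 scale (SE, adjusted p = 0.0426), while Gbx2 was higher by 3.66 ± 0.77 (adjusted p = 0.0011). With Gfi1 added, Fgf4, a growth factor of pluripotent cells, was higher by 2.39 ± 0.62 (adjusted p = 0.0058), Nodal by 1.51 ± 0.55 (adjusted p = 0.0401) and Foxd3, at mean levels of 8.15 normalized counts without and 6.54 with Dox, by 1.65 ± 0.58 (adjusted p = 0.0344), in limma. With Atoh1 added, Tcl1 was lower by -1.84 ± 0.51 (adjusted p = 0.0105) and Pou3f1 higher by 3.85 ± 0.52 (adjusted p = 2.60e-05) in limma. Gbx2, Fgf4, Nodal and Foxd3 were named after their values were seen. The calls of Dppa3, Tcl1, Nodal and Foxd3 were lost with a pseudocount of 5 (-0.98, -1.11, 1.47 and 1.06), and that of Nodal also with quantile normalization (1.30) and, like that of Dppa3, with only the groups compared. The call of Dppa3 was lost with no filter too (adjusted p = 0.0505 in limma). Leaving out 1 library removed the call of Dppa3 in 17 of 24 cases, that of Nodal in 14 and that of Foxd3 in 12, and in 0 of 24 for each of Gbx2, Fgf4, Tcl1 and Pou3f1.

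Of the 10 genes, 2 had both Dox libraries above both No Dox libraries in 1 line and below them in others. In a single line 26.3% to 36.4% of all genes had both Dox libraries below. The share of all genes above in 1 line and below in others was not computed. Klf4 was above in iAtoh1 (1.11) and below in iPou4f3 (-1.57) and iG+A (-0.21). The difference between iG+A and iAtoh1 was not called (-1.33, adjusted p = 0.222 in limma), and that between iAtoh1 and iPou4f3 was not tested. Tbx3 was above in iG+A (0.58) and below in iGfi1 (-0.47), iG+P (-0.84) and iP+A (-0.48). The difference between iG+A and iGfi1 was not called (1.05, adjusted p = 0.0785 in limma), and the others were not tested.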

How the results depend on the processing

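Over settings other than leaving out a library, 970 values for the 10 genes kept their direction and side of the threshold, 18 lost it, 23 gained it and 9 turned direction. The count of 5 for the mean over 7 lines stayed within 1.5 times under each of these settings. With the replicate block the counts were 6 in iAtoh1, 2 in iGfi1 and 4 in iPou4f3, and the block removed no call among the 10. With only the groups compared, which leaves fewer samples, they were 2 in iAtoh1, 1 in iGfi1, 2 in iG+A, 0 in iP+A, 1 in iGPA and 0 for untreated levels. With all untreated libraries as 1 control they were 8 in iG+A and 0 in iP+A, and with quantile normalization 1 for adding Atoh1. The share of all genes called was not counted for only the groups compared, for these 2 settings or with a library left out. These counts therefore cannot be set against all genes. Tdgf1 missed the size threshold with a pseudocount of 5 (-1.49), as did Utf1 relative to Pou5f1 (-1.49).

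Leaving out each library gave counts of 0 in iAtoh1, iGfi1 and iPou4f3 and for adding Gfi1 or Pou4f3, 1 to 5 in iG+A, 0 to 1 in iG+P, 0 to 8 in iP+A, 0 to 4 in iGPA, 3 to 5 for the mean, 0 to 5 for untreated levels and 0 to 2 for adding Atoh1 (1 without iG+A Dox replicate 2 or iGPA No Dox replicate 2, 2 without iP+A No Dox replicate 1).

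Among the 10 genes only uncalled changes turned direction, and the cause was not tested. With quantile normalization Zfp42 in iGPA was at -0.28 and Tdgf1 for adding Gfi1 at -0.037. With all untreated libraries as 1 control Zfp42 in iGPA was at -1.19, Klf2 in iAtoh1 at 0.22, Pou5f1 in iGfi1 at 0.081, Tbx3 in iG+A at -0.12 and in iG+P at 0.033, and Klf4 in iP+A at 0.49 and in iGPA at 0.29.

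With a library left out, Tbx3 ran from -0.20 to 0.30 in iAtoh1 and from -0.42 to 0.31 in iPou4f3, and Tdgf1 from -1.72 to 0.10 in iPou4f3. In iGfi1 Pou5f1 ran from -0.43 to 0.30, Klf4 from -0.35 to 0.98 and Klf2 from -0.34 to 0.42. In iG+P Pou5f1 ran from -0.70 to 0.62, Klf4 from -1.39 to 0.29 and Klf2 from -0.81 to 0.40, and in iP+A Klf4 from -0.21 to 0.12. In iGPA Pou5f1 ran from -1.13 to 0.82, Zfp42 from -0.71 to 0.85, Klf4 from -0.41 to 0.34, Klf2 from -0.98 to 0.022, Tbx3 from -0.53 to 0.39 and Tdgf1 from -2.34 to 0.49. For adding Gfi1 the ranges were -0.51 to 0.34 for Nanog, -0.38 to 0.18 for Klf4, -0.079 to 0.45 for Klf2, -0.26 to 0.58 for Esrrb, -0.10 to 0.20 for Tbx3, -0.46 to 0.63 for Tdgf1 and -0.77 to 0.16 for Utf1. For adding Pou4f3 they were -0.13 to 0.73 for Pou5f1, -0.73 to 0.12 for Nanog, -0.043 to 0.83 for Zfp42, -0.16 to 0.37 for Klf2, -0.76 to 0.083 for Esrrb, -0.72 to 0.21 for Dppa5a and -0.39 to 0.70 for Tdgf1. For adding Atoh1 Zfp42 ran from -0.60 to 0.27, and relative to Pou5f1 the mean of Zfp42 ran from -0.27 to 0.013 and that of Klf2 from -0.081 to 0.25.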
